A study of Homo sapiens with 9 samples.

Results

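The genes described here are 54 protein-coding genes of DNA replication and mitosis in A549, an established line of human lung adenocarcinoma cells. They were chosen by gene symbol from a fixed list, and all 54 were found among the 58735 genes of the count table. The list was drawn up with earlier results of these data known. Of the 54, 27 were classed as S-phase members, for S phase, when DNA is copied, and the steps that lead into it. Another 27 were classed as mitotic members, for mitosis, when the copies are pulled apart, and the steps that lead into it. The classes are assigned roles, and a member can act in other phases too. ZWINT, a kinetochore protein, was taken as the marker of the group.

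A549 cells had been transfected with a control plasmid (3 libraries), with a plasmid that overexpresses LINC00996 (3 libraries) or with one that overexpresses AP001189.3 (3 libraries). Both LINC00996 and AP001189.3 are long non-coding RNAs (lncRNAs). The labels name the control plasmid PC3.1, PC3.2 and PC3.3 in its 3 libraries, and the study's text names PC3.1 only. The promoter of the plasmids, the share of transfected cells and the time after transfection are not given in the sources used here, and although the study describes triplicate extractions, it is not stated for these libraries whether they came from separate cultures, so the p-values measure only the spread between these libraries, which may be technical. In bulk RNA, more cells in S phase or mitosis and more RNA of these genes per cell cannot be told apart.

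A cell loads the MCM2-7 helicase onto replication origins in G1 with the help of the origin recognition complex, CDC6 and CDT1. CDC45 and the GINS complex then turn the helicase on, and PCNA holds the polymerases on DNA. Most of these genes are transcribed at the G1/S boundary by E2F factors, which RB-family proteins hold back. Genes of mitosis are transcribed later, in G2, mainly through promoters that hold a CHR element (cell cycle genes homology region) near CCAAT boxes. Kinetochores are protein layers on the centromere that hold the spindle fibres, and the spindle checkpoint delays anaphase until every kinetochore is held. In tumours, the levels of these genes are widely read as a sign of proliferation.

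Library totals ran from 15272450 to 18125447 counts. Each plasmid's own lncRNA was checked first, and it followed the labels in all 9 libraries. LINC00996 had 287, 278 and 322 CPM (counts scaled to the library's total and TMM factor) in its own libraries and at most 0.528 elsewhere, while AP001189.3 had 98.2, 126 and 143 in its own libraries and at most 0.125 elsewhere. All 12 A549 and epithelial markers were at 1 CPM or more in every library. Of 14 leukocyte, fibroblast and endothelial markers, 6 to 7 per group had at most 3 counts in every library. The 5 at 1 CPM or more in every library were CD14, CDH5, COL1A1, COL3A1 and PECAM1. Of 5 tested in this latter list, 2 were called with LINC00996, both lower (40.0%, against 22.3% of all genes tested). With AP001189.3, 1 was called, lower (20.0%, against 19.8%). The summed level of the latter list was 44.7 to 49.6 CPM in control libraries, 33.9 to 37.7 with LINC00996 and 37.5 to 45.1 with AP001189.3. The A549 and epithelial list summed to 15580 to 15710 CPM in control libraries, 21120 to 23600 with LINC00996 and 16730 to 17330 with AP001189.3, and its part in the results was not tested. Of that list, 7 of 12 were called with LINC00996 (58.3%, against 22.3% of all genes tested): 5 rose, among them ALDH1A1 from a mean of 2927 to 5835 CPM, and CDH1 and KRT19 fell by 0.89 and 0.40 on the log2 scale (edgeR adjusted p 2.92e-05 and 0.0256).

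LINC00996 replicate 1 stood apart from the other libraries. The chi-square per gene between it and the other LINC00996 libraries was 21.6 and 32.4, against 2.24 to 7.11 for the other pairs within a group. Its level of a gene relative to the other libraries rose with the GC content of the gene's transcripts (Spearman's rho 0.432 across genes), while rho was -0.246 and -0.43 in the other LINC00996 libraries, -0.28 to -0.007 in control libraries and 0.211 to 0.362 with AP001189.3. Counts of called members and class medians are given with and without this library, as are the values of called members that it moved by over 1.5 times and of members that it moved across the threshold. Counts over the marker lists and the further lists, and counts of genes without overlap between groups, are given only with it.

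The S-phase and mitotic members differ in their promoters, a feature that the choice of genes did not use. RefSeq promoters (GRCh38.p14, 250 bases before to 50 after the start) were found for 45 of the 54 members and were searched on both strands. Those not found were MCM4, MCM5, GINS4, CCNE2, CDK2, AURKA, BIRC5, TPX2 and UBE2C. The E2F site was searched as TTTCCCGC, TTTGGCGC, TTTCGCGC or TTTGCCGC. It was in 14 of 22 S-phase promoters (63.6%) and 2 of 23 mitotic promoters (8.70%), and in 3.33% of all 27305 promoters of that length. The CHR element was searched as TTTGAA or TTCGAA, and was in 2 of 22 S-phase promoters (9.09%), 17 of 23 mitotic promoters (73.9%) and 16.6% of all. The CCAAT box, searched as CCAAT, was in 14 S-phase promoters (63.6%), 19 mitotic promoters (82.6%) and 35.7% of all. A CHR element together with a CCAAT box was in 2 S-phase promoters (9.09%), 14 mitotic promoters (60.9%) and 6.58% of all. A match is only a match of letters, and binding was not measured.

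Of these promoters, 6 are shown because the results below turn on their genes. MCM6, which rose with LINC00996, and PCNA, which did not pass, stand for the S-phase members, and ZWINT, PLK1, CDC20 and TOP2A stand for the mitotic members. Each line gives the 200 bases before the RefSeq start on the gene's strand, with every matched E2F site, CHR element and CCAAT box in capitals, as read on either strand.
MCM6 (chr2:135876444-135876643, minus strand): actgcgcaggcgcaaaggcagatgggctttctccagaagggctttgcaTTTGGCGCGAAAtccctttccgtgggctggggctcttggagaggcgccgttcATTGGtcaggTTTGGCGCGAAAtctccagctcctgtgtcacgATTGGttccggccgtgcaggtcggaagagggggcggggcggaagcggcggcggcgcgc
PCNA (chr20:5126623-5126822, minus strand): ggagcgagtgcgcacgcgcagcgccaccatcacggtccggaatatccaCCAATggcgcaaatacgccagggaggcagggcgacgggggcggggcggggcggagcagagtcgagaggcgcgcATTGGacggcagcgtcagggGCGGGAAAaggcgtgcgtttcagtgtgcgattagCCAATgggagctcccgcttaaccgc
ZWINT (chr10:56361260-56361459, minus strand): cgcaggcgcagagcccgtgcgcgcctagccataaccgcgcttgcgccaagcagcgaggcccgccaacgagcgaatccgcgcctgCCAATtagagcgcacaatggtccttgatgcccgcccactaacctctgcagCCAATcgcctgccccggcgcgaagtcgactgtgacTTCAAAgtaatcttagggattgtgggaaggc
PLK1 (chr16:23678689-23678888, plus strand): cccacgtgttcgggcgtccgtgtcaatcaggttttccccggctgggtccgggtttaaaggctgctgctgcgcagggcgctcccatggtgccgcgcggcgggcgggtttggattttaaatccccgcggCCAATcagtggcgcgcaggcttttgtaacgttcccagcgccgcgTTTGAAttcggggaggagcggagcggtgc
CDC20 (chr1:43358781-43358980, plus strand): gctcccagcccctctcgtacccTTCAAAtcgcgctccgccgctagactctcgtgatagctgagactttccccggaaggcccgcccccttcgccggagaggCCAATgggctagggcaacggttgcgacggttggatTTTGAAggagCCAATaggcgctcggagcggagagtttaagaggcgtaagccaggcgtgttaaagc
TOP2A (chr17:40417897-40418096, minus strand): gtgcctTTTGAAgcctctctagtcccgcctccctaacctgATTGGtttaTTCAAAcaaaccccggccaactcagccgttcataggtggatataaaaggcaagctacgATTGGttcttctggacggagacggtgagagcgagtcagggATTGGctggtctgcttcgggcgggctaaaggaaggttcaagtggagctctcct
MCM6 holds 4 E2F matches in the pair of long capital stretches, where matches on opposite strands overlap, and PCNA holds 1, GCGGGAAA. ZWINT and PLK1 each hold 1 CHR element close to the start, and CDC20 and TOP2A hold 2 each. The 200 bases of these 4 mitotic promoters hold no E2F match, and those of MCM6 and PCNA hold no CHR match.

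In the control cells, the members covered a wide range of levels. By the deposited FPKM, which divides counts by gene length and so allows genes to be compared, PCNA was highest at 248.5 ± 15.6 (SD, n = 3). It was followed by TOP2A, the topoisomerase that untangles sister chromatids, at 64.7 ± 6.37 FPKM and by TK1, which makes thymidine phosphate, at 64.4 ± 8.37 FPKM. These last 2 did not differ beyond their spread. MCM7 (35.1 ± 0.463 FPKM) and TPX2, a spindle assembly factor (34.6 ± 1.23 FPKM), came next and also lay within their spread. The lowest was CCNE2, the gene of cyclin E2, at 0.672 ± 0.133 FPKM. The lowest count of any member in any library was 39, so all 54 passed the filter on low counts and were tested in each comparison.

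LINC00996 against control asked what the LINC00996 plasmid changed. Genes of both S phase and mitosis were higher with LINC00996: 40 of 54 members rose, and none fell. By the edgeR quasi-likelihood test, adjusted by Benjamini-Hochberg over all 16097 genes tested, 16 of 27 S-phase members and 24 of 27 mitotic members passed an adjusted p of 0.05. Over all genes tested, 22.3% passed, 10.7% as higher and 11.6% as lower. The median log2 fold change of the members was 0.51, against 0.01 for all genes tested. A log2 fold change of 1 was exceeded by ZWINT and CDC20, while 4.72% of all genes tested were called past it in either direction. The libraries of the 2 groups did not overlap for 45 members, all higher with LINC00996, while this held for 40.5% of all genes and, in the higher direction, for 20.0%.

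**Figure D1:**
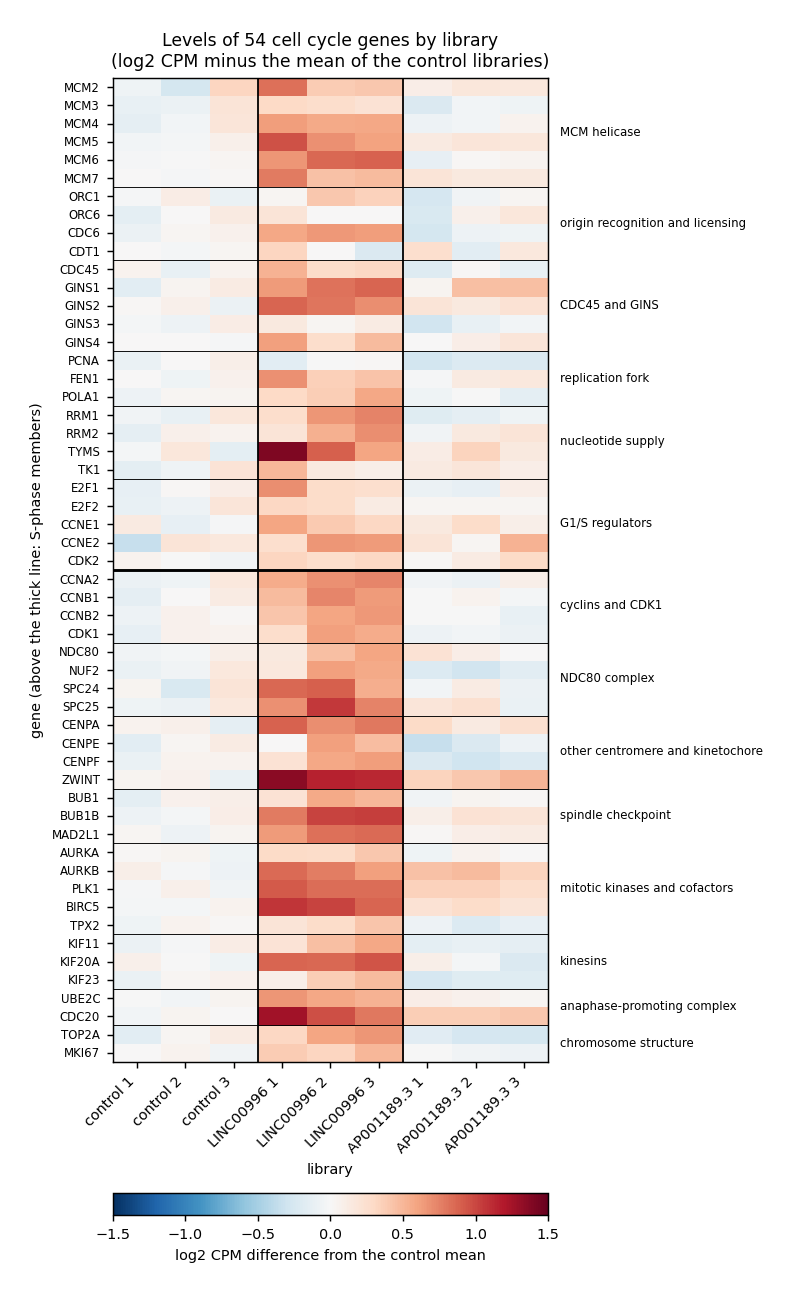
Level of each of the 54 genes (rows, grouped by role) in each of the 9 libraries (columns), as log2 CPM minus the mean of the 3 control libraries. Red is higher and blue is lower than the control mean. The LINC00996 columns are red in nearly all rows, palest for PCNA, ORC6, CDT1 and GINS3, while the AP001189.3 columns are pale with few exceptions such as ZWINT, AURKB and CDC20.

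ZWINT links the NDC80 complex to the checkpoint proteins of the kinetochore. Its level was 29.8, 30.4 and 27.2 CPM in the control libraries, 74.5, 64.7 and 64.1 CPM with LINC00996 and 36.8, 38.6 and 41.5 CPM with AP001189.3. The 3 groups did not overlap, with control lowest and LINC00996 highest. The log2 fold change with LINC00996 was 1.21 ± 0.108 (SE), or 2.32-fold, with an edgeR adjusted p of 1.65e-05. This was the largest change among the members.

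All 4 members of the cyclin and CDK1 group rose with LINC00996. CCNA2 encodes cyclin A2, which drives CDK2 in S phase and CDK1 in G2. It had 31.8, 32.3 and 37.8 CPM in control and 49.9, 54.6 and 56.5 CPM with LINC00996. The groups did not overlap, and the log2 fold change was 0.66 ± 0.111 (edgeR adjusted p 0.00141). CCNB1 and CCNB2, the B-type cyclins of mitotic entry, changed by 0.61 and 0.55 on the log2 scale, and CDK1, their kinase, by 0.48.

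All 5 mitotic kinases and cofactors rose. BIRC5, or survivin, is the subunit of the chromosomal passenger complex that brings AURKB to centromeres. It had 43.9, 44.0 and 46.6 CPM in control and 94.5, 90.5 and 82.2 CPM with LINC00996. PLK1, the kinase of mitotic entry and spindle assembly, had 37.8, 40.5 and 36.9 CPM in control and 72.6, 68.9 and 68.4 CPM with LINC00996. Neither gene's groups overlapped, and each LINC00996 library lay well above each control library. The log2 fold changes were 0.99 ± 0.0982 for BIRC5 (edgeR adjusted p 3.67e-05) and 0.86 ± 0.0969 for PLK1 (9.04e-05). AURKB itself changed by 0.74 on the log2 scale, and AURKA and its partner TPX2 by 0.32 and 0.30, the smallest changes of this role. AURKA and TPX2 lost the call when gene length was an offset, with no filter on low counts, and without any 1 control library, LINC00996 replicate 2 or LINC00996 replicate 3 (adjusted p up to 0.136 for AURKA and 0.173 for TPX2).

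At the kinetochore, 3 of 4 members of the NDC80 complex rose, as did 3 of 4 other centromere and kinetochore members and all 3 spindle checkpoint members. SPC25, a subunit of the NDC80 complex that grips microtubules, had 6.58, 6.48 and 7.70 CPM in control and 11.1, 14.5 and 11.7 CPM with LINC00996, a log2 fold change of 0.84 ± 0.157 (edgeR adjusted p 0.0027). BUB1B, the checkpoint protein BUBR1, had 16.5, 17.1 and 18.6 CPM in control and 29.9, 35.1 and 35.9 CPM with LINC00996, a log2 fold change of 0.95 ± 0.121 (edgeR adjusted p 0.000231). The libraries of both genes were apart between the groups. CENPA, the histone H3 variant that marks centromeres, changed by 0.79 on the log2 scale, MAD2L1, the checkpoint protein MAD2, by 0.77, and BUB1, a checkpoint kinase, by 0.43. SPC24 and NUF2, further subunits of the NDC80 complex, changed by 0.77 and 0.45, and CENPF, a large protein of the outer kinetochore, by 0.48. NDC80 (0.41, adjusted p 0.067) and CENPE, a kinetochore motor (0.38, adjusted p 0.0971), did not pass. Both had their lowest LINC00996 value in replicate 1, and both were called without it (0.53, adjusted p 0.00163 for NDC80 and 0.54, adjusted p 5.27e-05 for CENPE), with the replicate block and with the GC content offset.

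CDC20, the activator of the anaphase-promoting complex, had 25.7, 27.0 and 26.3 CPM in control. With LINC00996 it had 62.9, 51.4 and 45.6 CPM, and the highest value was again that of replicate 1. The groups did not overlap, the log2 fold change was 1.02 ± 0.128, or 2.02-fold, and the edgeR adjusted p was 0.000207. UBE2C, the ubiquitin carrier of the same complex, changed by 0.59 on the log2 scale. KIF20A, a kinesin of cytokinesis, had 31.4, 29.6 and 28.5 CPM in control and 54.5, 54.4 and 57.3 CPM with LINC00996. Its 3 LINC00996 libraries lay close together, and the log2 fold change was 0.89 ± 0.101 (edgeR adjusted p 9.71e-05). KIF11, the motor that separates spindle poles, changed by 0.41, and KIF23, a motor of the central spindle, had a log2 fold change of 0.32 and did not pass (adjusted p 0.0622). KIF23 was called without LINC00996 replicate 1 (0.42, adjusted p 1.81e-05), with the replicate block, with either offset, with library size alone, with no filter and in 1 fit over all 9 libraries. TOP2A had 374, 429 and 457 CPM in control and 519, 632 and 662 CPM with LINC00996. Its log2 fold change was 0.52 ± 0.111 (edgeR adjusted p 0.00571), with no overlap but with replicate 1 the lowest of the LINC00996 libraries. MKI67, the gene of the proliferation marker Ki-67, changed by 0.40 on the log2 scale.

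Among the S-phase members, 5 of 6 subunits of the MCM helicase rose. MCM6 had 36.6, 37.1 and 37.9 CPM in control and 59.1, 67.9 and 69.1 CPM with LINC00996, and MCM5 had 41.7, 42.2 and 45.3 CPM in control and 83.3, 69.5 and 65.3 CPM with LINC00996. The groups of both genes were apart, yet replicate 1 was the lowest LINC00996 library for MCM6 and the highest for MCM5. The log2 fold changes were 0.81 ± 0.102 for MCM6 (edgeR adjusted p 0.000221) and 0.75 ± 0.113 for MCM5 (0.0007). MCM4, MCM7 and MCM2 changed by 0.59, 0.57 and 0.53 on the log2 scale. MCM3 had a log2 fold change of 0.25 and did not pass (adjusted p 0.108), although its libraries did not overlap between the groups. MCM2 was the only member that lost its call without LINC00996 replicate 1 (log2 fold change 0.37, adjusted p 0.0672).

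Of the 4 genes of helicase loading, CDC6 was called. It had 38.9, 42.0 and 43.2 CPM in control and 62.0, 65.0 and 64.1 CPM with LINC00996, a log2 fold change of 0.62 ± 0.0969 (edgeR adjusted p 0.0009). The other 3 of this role did not pass: ORC1 and ORC6, subunits of the origin recognition complex, had log2 fold changes of 0.26 and 0.06, and CDT1 one of 0.05. Their libraries overlapped between the groups. Whether they differed from CDC6 in response was not tested. Of CDC45 and the GINS complex, 3 of 5 members were called. GINS1 had 36.9, 42.5 and 44.9 CPM in control and 64.2, 72.6 and 75.9 CPM with LINC00996, with no overlap and a log2 fold change of 0.77 ± 0.112 (edgeR adjusted p 0.000558). GINS2 and GINS4 changed by 0.80 and 0.46 on the log2 scale, while GINS3 (0.10, adjusted p 0.641) and CDC45 (0.37, adjusted p 0.0564) did not pass. CDC45 was called with the GC content offset, the replicate block, library size alone, a minimum of 10 counts in every library and in 1 fit over all 9 libraries.

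PCNA, the most abundant member, did not pass. It had 344, 369.9 and 391 CPM in control and 329, 366 and 373 CPM with LINC00996. The groups overlapped, and the log2 fold change of -0.05 ± 0.0907 (edgeR adjusted p 0.721) made it the only member of the 54 with a log2 fold change below 0, which was 0.0015 without LINC00996 replicate 1. FEN1, the nuclease that trims Okazaki fragments and a partner of PCNA, had 58.5, 55.4 and 60.6 CPM in control and 93.6, 74.7 and 78.4 CPM with LINC00996. Its log2 fold change was 0.50 ± 0.109 (edgeR adjusted p 0.00698), with no overlap, and the adjusted p was 0.0532 without control replicate 2. POLA1, the catalytic subunit of the polymerase that starts new strands, changed by 0.42. FEN1 shares exon sequence with FADS2 and TMEM258, so its counts could be split among them.

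For nucleotide supply, 3 of 4 members were called. TYMS, which makes thymidylate, had 14.4, 16.6 and 13.3 CPM in control and 38.9, 27.4 and 22.2 CPM with LINC00996. The groups did not overlap, but the LINC00996 libraries were spread, with replicate 1 the highest. The log2 fold change was 1.00 ± 0.188 (edgeR adjusted p 0.00282), and 0.74 without replicate 1. TYMS overlaps ENOSF1 and TYMSOS on the opposite strand, and since strand use is not stated their reads cannot be told apart. RRM1 and RRM2, the subunits of ribonucleotide reductase, changed by 0.57 and 0.48 on the log2 scale, and TK1 had a log2 fold change of 0.24 (adjusted p 0.2). Of the G1/S regulators, 2 of 5 were called (40.0%, against 22.3% of all genes tested). CCNE1, or cyclin E1, had 24.2, 20.2 and 21.7 CPM in control and 33.3, 28.97 and 27.3 CPM with LINC00996, a log2 fold change of 0.43 ± 0.125 (edgeR adjusted p 0.0272). Its groups were apart by a small margin, and the call was lost when gene length was an offset and without control replicate 2, control replicate 3 or LINC00996 replicate 2 (adjusted p up to 0.142). E2F1, the activating E2F factor, changed by 0.42 (adjusted p 0.0486), and by 0.26 without LINC00996 replicate 1 (adjusted p 0.0436), while E2F2 (0.23, adjusted p 0.251), CCNE2 (0.52, adjusted p 0.127) and CDK2, the kinase of cyclin E (0.29, adjusted p 0.0522), did not pass.

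**Figure D2:**
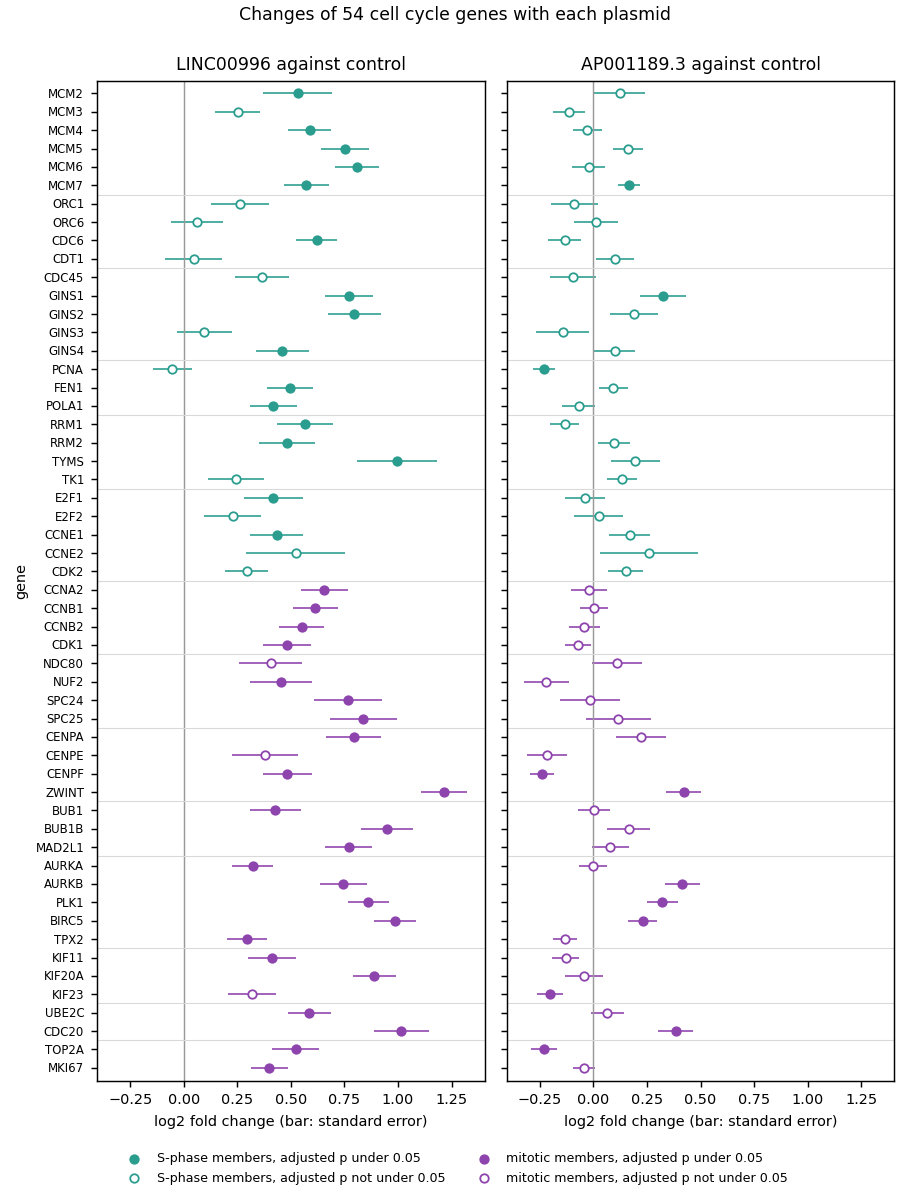
Log2 fold change of each of the 54 genes (rows, in order of role) with LINC00996 (left) and AP001189.3 (right) against the same 3 control libraries, with standard errors as bars; filled points passed an adjusted p of 0.05. With LINC00996 every point but PCNA lies right of 0, and with AP001189.3 the points lie on both sides, between -0.24 and 0.42.

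The classes were also compared with each other. The median log2 fold change with LINC00996 was 0.46 for S-phase members and 0.59 for mitotic members, so that S-phase minus mitotic was -0.13. Averaged per library as the difference from the control mean on the log2 scale, the S-phase members were at 0.50, 0.42 and 0.42 in the LINC00996 libraries, 0.44 ± 0.046 (SD, n = 3). The mitotic members were at 0.55, 0.68 and 0.67, or 0.63 ± 0.0752. All LINC00996 libraries were above all control libraries in both classes. The mitotic mean exceeded the S-phase mean in each LINC00996 library, by little in replicate 1, where S-phase minus mitotic was -0.05, and by more in the others (-0.26 and -0.25). In the control libraries, this difference was between -0.02 and 0.03. No test was made of it, since the members are not replicates.

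Without LINC00996 replicate 1, 46 members were called with LINC00996, all higher, of which 39 were among the 40 called with it. These were 19 S-phase and all 27 mitotic members, 33.2% of all genes tested were then called, and the medians were 0.38 for S-phase and 0.62 for mitotic members, a difference of -0.24. Besides NDC80, CENPE and KIF23, the members gained were ORC1 (0.37, adjusted p 0.0115), MCM3 (0.23, adjusted p 0.0278), CCNE2 (0.65, adjusted p 0.0331) and CDK2 (0.28, adjusted p 0.0111). All of them but ORC1 were also called with the GC content offset. The number called also rested on the control libraries: without control replicate 2 it was 26 (8 S-phase and 18 mitotic), when 11.6% of all genes tested were called. Calls kept under all settings were counted for the members and not over all genes. With each library left out in turn and under every other setting tried at the same threshold, 25 of the 40 stayed called (8 S-phase and 17 mitotic). The other 15 were MCM2, GINS4, FEN1, POLA1, RRM1, RRM2, E2F1 and CCNE1 of S phase and CDK1, NUF2, CENPF, BUB1, AURKA, TPX2 and KIF11 of mitosis.

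**Figure D3:**
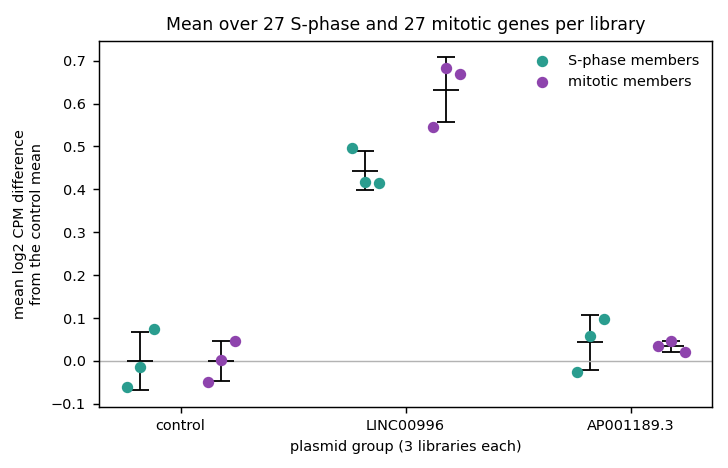
Mean over the 27 S-phase genes (green) and the 27 mitotic genes (purple) in each library, as log2 CPM minus the control mean; points are libraries, and lines and bars are the mean and SD of 3 libraries. The LINC00996 libraries lie between 0.42 and 0.68, above all others, with the 2 classes closest in replicate 1, and the AP001189.3 libraries lie between -0.03 and 0.10.

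AP001189.3 against control asked the same of the other plasmid, with the same 3 control libraries. Here the members were split: 7 rose, 4 fell and 43 did not pass. The 11 called are 20.4% of the members, close to the 19.8% of all 16023 genes tested (11.4% higher and 8.49% lower). The median log2 fold change was 0.01 for the members, 0.09 for the S-phase and 0.00 for the mitotic members, and 0.00 for all genes. No member reached a log2 fold change of 1 (0.986% of all genes tested were called past it). The libraries did not overlap for 17 members, 10 higher and 7 lower, against 35.2% of all genes. The mean of the S-phase members per library was -0.03, 0.06 and 0.10 relative to control, and that of the mitotic members 0.04, 0.05 and 0.02. Only the S-phase mean of replicate 3 lay outside the range of its class in the control libraries, which was -0.06 to 0.07 for S-phase and -0.05 to 0.05 for mitotic members.

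The members that rose with AP001189.3 were GINS1 and MCM7 of S phase and ZWINT, AURKB, CDC20, PLK1 and BIRC5 of mitosis. ZWINT, whose values are given above, changed by 0.42 ± 0.0813 on the log2 scale, or 1.34-fold (edgeR adjusted p 0.000518). AURKB, the kinase of the chromosomal passenger complex, had 27.7, 25.9 and 24.9 CPM in control, 35.5, 36.3 and 32.9 CPM with AP001189.3 and 47.1, 44.8 and 40.0 CPM with LINC00996. Its groups were in the same order as those of ZWINT, without overlap, and the log2 fold change with AP001189.3 was 0.41 ± 0.083 (edgeR adjusted p 0.00073). CDC20 had 34.1, 34.0 and 34.7 CPM with AP001189.3, above each control library and below each LINC00996 library, a log2 fold change of 0.38 ± 0.0803 (edgeR adjusted p 0.00112). PLK1 and BIRC5 changed by 0.32 and 0.23.

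In S phase, GINS1 had 42.6, 56.7 and 56.4 CPM with AP001189.3, of which replicate 1 lay within the control range. Its log2 fold change was 0.32 ± 0.105 (edgeR adjusted p 0.0432), and the call was lost when library size alone was the scaling, with a gene length offset or with thinned counts. MCM7 had 156, 153 and 157 CPM in control and 178, 172 and 172 CPM with AP001189.3. The groups did not overlap, but the change was small, at 0.17 ± 0.0507 on the log2 scale (edgeR adjusted p 0.0205), and MCM7 overlaps AP4M1 on the opposite strand.

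The members that fell with AP001189.3 were PCNA, CENPF, KIF23 and TOP2A. PCNA had 304.5, 319.9 and 316 CPM with AP001189.3, below each control library, and fell by 0.23 on the log2 scale (SE 0.0523, edgeR adjusted p 0.00223). CENPF had 127, 141 and 142.5 CPM in control, 118, 111 and 119 CPM with AP001189.3 and 159.7, 204 and 212 CPM with LINC00996. Control thus lay between the plasmids without overlap, and with AP001189.3 CENPF fell by 0.24 (SE 0.0574, edgeR adjusted p 0.00352). TOP2A had 372, 352 and 348 CPM with AP001189.3, each below the lowest control library, and fell by 0.23 (SE 0.0588, edgeR adjusted p 0.00665). KIF23 had 85.0, 92.6 and 95.1 CPM in control and 76.1, 80.2 and 80.3 CPM with AP001189.3, and fell by 0.20 (SE 0.0609, edgeR adjusted p 0.0182), also without overlap. PCNA has named pseudogenes in the annotation, so reads could be shared with them.

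**Figure D4:**
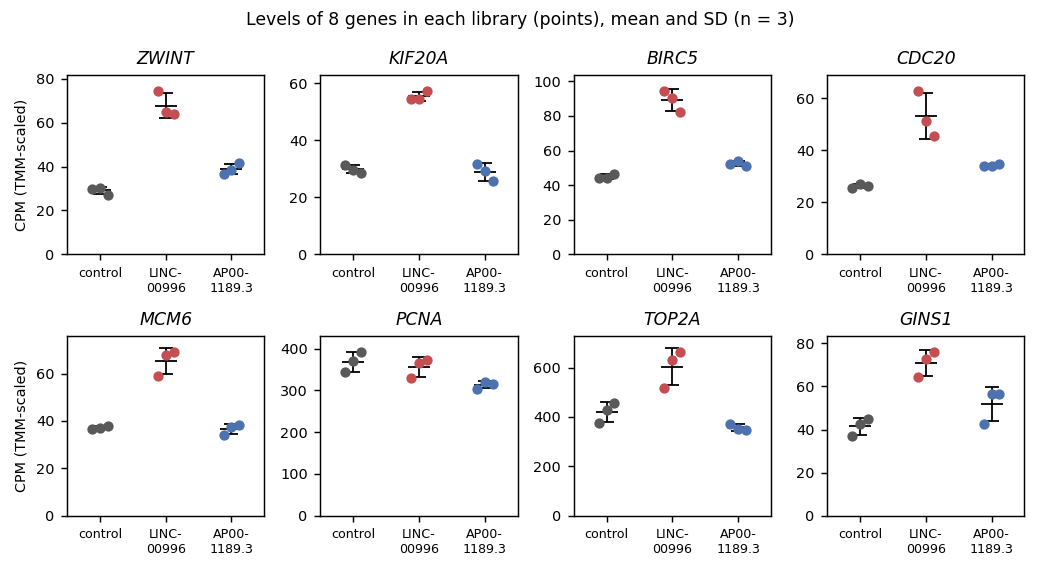
CPM (y axes, starting at 0) of 8 members in the 3 libraries of each group; points are libraries, and lines and bars are the mean and SD (n = 3). ZWINT, BIRC5 and CDC20 step from control over AP001189.3 to LINC00996. KIF20A and MCM6 are raised with LINC00996 and near control with AP001189.3, and PCNA is lower with AP001189.3. TOP2A is above control with LINC00996 and below it with AP001189.3, and GINS1 is spread with AP001189.3. The call of TOP2A with AP001189.3 was lost with the GC content offset, in 1 fit over all 9 libraries and without control replicate 2.

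These small changes moved with GC content. The 7 members called higher with AP001189.3 had a median GC content of 56.1% (43.0 to 57.2%) in their transcripts, and the 4 called lower one of 41.2% (38.9 to 45.2%). Across the 54 members, the log2 fold change with AP001189.3 had a Pearson's r of 0.43 with GC content, and across 13377 protein-coding genes r was 0.41. With LINC00996, r was 0.0075 across the members and 0.057 across 13376 protein-coding genes. These correlations are across genes that share libraries and are given as a description. The LINC00996 libraries differed in their dependence on GC content (rho 0.432, -0.246 and -0.43), so the r with LINC00996 averages over unlike libraries. With an offset for GC content, 47 members were called with LINC00996, all higher, beside 38.1% of all genes tested. S-phase minus mitotic was then -0.11 with LINC00996. With an offset for GC content, 7 members were called with AP001189.3, 6 higher and PCNA lower, beside 14.6% of all genes tested, while MCM7, CENPF, TOP2A and KIF23 lost the call, and S-phase minus mitotic went from 0.09 to -0.04. In 1 fit over all 9 libraries, ZWINT and AURKB were the members called, beside 2.64% of all genes. Without AP001189.3 replicate 2, 7 members were called, beside 11.6% of all genes. Without control replicate 2, 6 members were called, beside 12% of all genes, and GINS1, MCM7, BIRC5, KIF23 and TOP2A lost the call (their largest adjusted p with 1 library left out ranged from 0.0536 for TOP2A to 0.147 for GINS1). S-phase minus mitotic was then 0.00. S-phase members had a median GC content of 50.8% and mitotic members one of 44.8%.

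**Figure D5:**
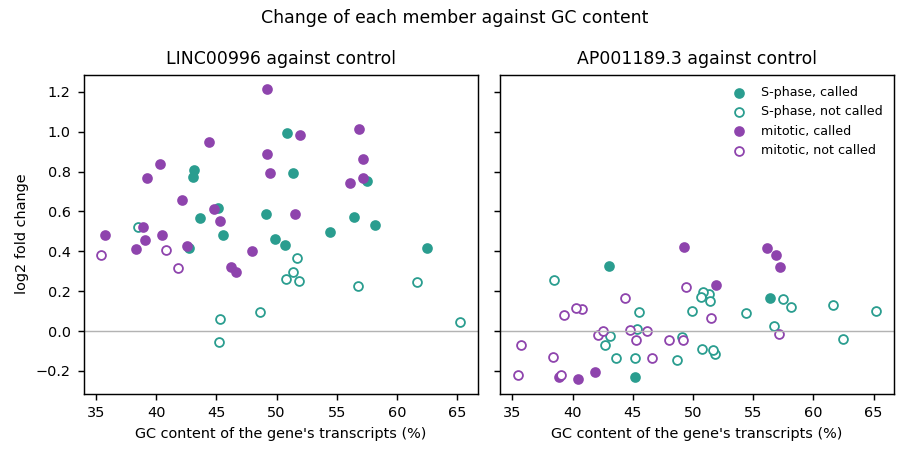
Log2 fold change of the 54 genes (y axis) against the GC content of their transcripts in percent (x axis), with LINC00996 (left) and AP001189.3 (right); filled points passed an adjusted p of 0.05. With LINC00996 the points show no slope (r 0.0075), and with AP001189.3 they rise from left to right (r 0.43).

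Both comparisons share the 3 control libraries, so their values are only set side by side. On the log2 scale, ZWINT changed by 1.21 with LINC00996 and 0.42 with AP001189.3, AURKB by 0.74 and 0.41, and BIRC5 by 0.99 and 0.23. CENPF changed by 0.48 and -0.24, and TOP2A by 0.52 and -0.23. PCNA had values of -0.05 and -0.23, of which only the second passed.

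LINC00996 against AP001189.3 tested the difference of the plasmids itself, without the control libraries. Of the 54 members, 41 were higher with LINC00996 and none was lower, 15 of 27 S-phase and 26 of 27 mitotic members. Over all 16095 genes tested, 21.4% were called, 9.38% higher and 12.1% lower. Libraries did not overlap for 48 members, all higher with LINC00996, against 39.4% of all genes and 19.8% in the higher and 19.6% in the lower direction. No member reached a log2 fold change of 1, and 4.14% of all genes were called past it. The median log2 fold change was 0.52 over the members, 0.40 for S-phase and 0.59 for mitotic members, and 0.02 for all genes.

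KIF20A, which had 31.8, 29.2 and 25.7 CPM with AP001189.3, differed most, by 0.93 ± 0.107 on the log2 scale, or 1.91-fold (edgeR adjusted p 0.000113). MCM6 had 34.1, 37.5 and 38.2 CPM with AP001189.3 and differed by 0.83 ± 0.106 (edgeR adjusted p 0.000229). Both were close to control with AP001189.3, and their LINC00996 libraries lay above all others. ZWINT differed by 0.79 ± 0.103 (edgeR adjusted p 0.000264), and its level with AP001189.3 was itself above control. BIRC5 had 52.3, 54.2 and 51.3 CPM with AP001189.3 and differed by 0.75 ± 0.0926 (edgeR adjusted p 0.000183). CDC6 had 34.5, 39.1 and 39.4 CPM with AP001189.3, a difference of 0.75 ± 0.0987 (edgeR adjusted p 0.000288). MCM4 had 111, 119.6 and 138 CPM in control, 116, 119 and 127 CPM with AP001189.3 and 189.8, 182 and 184 CPM with LINC00996, a difference of 0.61 ± 0.0832 (edgeR adjusted p 0.000367). In MCM4 and CDC6 as in the others, no library of one plasmid reached those of the other.

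All 6 MCM subunits were called in this comparison, MCM3 among them (0.36, adjusted p 0.015), but MCM2, MCM3 and MCM7 lost the call without any 1 AP001189.3 library, and MCM3 also without LINC00996 replicate 2 (adjusted p up to 0.147). NDC80 was the only mitotic member that did not pass (0.29, adjusted p 0.182). The S-phase members that did not pass were ORC1, ORC6, CDT1, GINS3, GINS4, PCNA, RRM2, TK1, E2F2, CCNE1, CCNE2 and CDK2, with log2 fold changes from -0.06 for CDT1 to 0.39 for RRM2. RRM2 (adjusted p 0.0603) was called with DESeq2, no filter, library size alone, the replicate block, either offset and in 1 fit over all 9 libraries, and GINS4 (adjusted p 0.0558) with library size alone, either offset and in 1 fit over all 9 libraries. With the GC content offset ORC1, TK1 and CCNE1 were called as well. S-phase minus mitotic was -0.20, and -0.13 without LINC00996 replicate 2 and -0.31 without LINC00996 replicate 1, when the medians were 0.35 and 0.66 and 46 members were called (19 S-phase and 27 mitotic) beside 41.6% of all genes. The 5 gained were NDC80 (0.42), ORC1 (0.46), GINS4 (0.28), RRM2 (0.52) and PCNA (0.23), with adjusted p up to 0.0245. MCM2 and E2F1, with differences of 0.40 and 0.45, were then at 0.25 and 0.30, and both stayed called. Without AP001189.3 replicate 1 the number was 27 (6 S-phase and 21 mitotic), beside 11.2% of all genes. Calls kept under all settings were again not counted over all genes. Under every setting tried at the same threshold, 26 of the 41 stayed called (6 of 15 S-phase and 20 of 26 mitotic). Those that did not were MCM2, MCM3, MCM7, CDC45, GINS1, FEN1, POLA1, TYMS and E2F1 of S phase and CENPE, BUB1, AURKA, AURKB, TPX2 and KIF23 of mitosis.

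Other genes of the same processes were counted from lists, which were also chosen with earlier results of these data known. Of 58 further genes of DNA replication, 57 were tested, and 22 rose and none fell with LINC00996 (38.6%, against 22.3% of all genes tested). UNG, the glycosylase that removes uracil from DNA, had 36.6, 37.7 and 38.0 CPM in control and 83.5, 71.0 and 67.1 CPM with LINC00996, a log2 fold change of 0.98 ± 0.109 (edgeR adjusted p 8.5e-05) with no overlap. POLD2, a subunit of polymerase delta, changed by 0.66. The median over the list was 0.32. With AP001189.3, 6 rose, among them UNG (0.35), DBF4B (0.38) and POLD2 (0.28), and 5 fell, among them the origin recognition subunits ORC3 (-0.34) and ORC4 (-0.28) and the clamp loader subunit RFC1 (-0.24). These 11 are 19.3% of the list, close to the 19.8% of all genes, and the list's median was -0.04. POLD2, ORC3, ORC4 and RFC1 lost the call with the GC content offset, ORC3 and ORC4 also without control replicate 2, control replicate 3 or AP001189.3 replicate 1 (adjusted p up to 0.102), and RFC1 without control replicate 2 or AP001189.3 replicate 3 (adjusted p up to 0.0991). Between the plasmids, 24 were higher with LINC00996 and none lower (42.1%, against 21.4% of all genes), among them UNG (0.62) and RPA3, a subunit of the single-strand binding protein (0.59).

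Of 87 further genes of mitosis and the kinetochore, 43 rose and 1 fell with LINC00996 (50.6%, against 22.3% of all genes tested), with a median of 0.38. PIMREG, a regulator of the metaphase-to-anaphase step, had 11.0, 10.4 and 11.4 CPM in control, 34.0, 31.5 and 25.9 CPM with LINC00996 and 17.7, 16.7 and 15.0 CPM with AP001189.3. The groups did not overlap, and the log2 fold change with LINC00996 was 1.47 ± 0.136 (edgeR adjusted p 2.03e-05), larger than that of any of the 54. CDCA3 changed by 0.93 and ARHGAP11A by 0.75. The gene that fell was CDC25B, the phosphatase that starts activation of CDK1, which had 668, 659 and 629.6 CPM in control and 482, 458 and 461 CPM with LINC00996 and fell by 0.49 (SE 0.0799, edgeR adjusted p 0.00124). Each LINC00996 library was below each control library, while CDK1, the target of CDC25B, rose. With AP001189.3, 7 rose, among them KIF18B (0.45), PIMREG (0.59) and the kinesin KIFC1 (0.44), and 11 fell, among them KIF20B (-0.33), the condensin subunit SMC2 (-0.30) and CKAP5 (-0.21). These 18 are 20.7% of the list, close to the 19.8% of all genes, and the list's median was -0.09. KIF20B and SMC2 lost the call with the GC content offset, and CKAP5 without AP001189.3 replicate 2 (adjusted p 0.0511). Between the plasmids, 47 were higher with LINC00996, of which PIMREG (0.88), CDCA3 (0.86) and NEK2 (0.78) had the smallest adjusted p, and CDC25B was lower (-0.38). This was 55.2% of the list, against 21.4% of all genes.

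Of 43 cell cycle inhibitors, RB-family genes and G1 kinases, 40 were tested, and 6 rose and 1 fell with LINC00996. This is 17.5% of the list, below the 22.3% of all genes tested, and its median was 0.10. CDK4, a kinase of G1, had 46.7, 41.3 and 41.8 CPM in control and 85.1, 60.7 and 53.6 CPM with LINC00996, a log2 fold change of 0.62 ± 0.154 (edgeR adjusted p 0.0136), with no overlap and replicate 1 the highest. The change of CDK4 was 0.40 without LINC00996 replicate 1, and the call was lost without control replicate 2 or control replicate 3 (adjusted p 0.0675 and 0.0703). Its inhibitor CDKN2C, or p18, changed by 0.79 and CDKN3, a phosphatase that acts on CDK1 and CDK2, by 0.73, with the call of CDKN3 lost without control replicate 1 or control replicate 2 (adjusted p 0.0811 and 0.0829). CCND1, or cyclin D1, the partner of CDK4, had 249, 250.3 and 264 CPM in control and 209.8, 194 and 217 CPM with LINC00996, and fell by 0.30 (SE 0.0869, edgeR adjusted p 0.0274). That call was lost with no filter on low counts, and without any 1 control library or LINC00996 replicate 2 (adjusted p up to 0.147). CDKN1A, or p21, which blocks CDK2 and binds PCNA, had 266, 242 and 260.3 CPM in control and 239, 192 and 190.0 CPM with LINC00996, a log2 fold change of -0.31 ± 0.105 that did not pass (edgeR adjusted p 0.0513). It passed with DESeq2, no filter, the replicate block, either offset and in 1 fit over all 9 libraries (adjusted p 3.21e-05 to 0.0389), and without LINC00996 replicate 1, when it was -0.43 (adjusted p 2.96e-06), but not with any other library left out (adjusted p up to 0.197). CDKN2A, which is deleted in A549, had 0 counts in all 9 libraries, where a count of 0 allows up to 3 by counting error.

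With AP001189.3, 6 genes of that list rose and 6 fell, which is 30.0% of the list against 19.8% of all genes, with a list median of 0.00. CDKN1A had 301, 315 and 308 CPM, above each control library, a log2 fold change of 0.27 ± 0.051 (edgeR adjusted p 0.000467). CCND1 had 266, 299 and 301 CPM, a log2 fold change of 0.18 ± 0.0542 (edgeR adjusted p 0.0168). GADD45A, a stress gene that slows CDK1, had 31.1, 30.6 and 26.5 CPM in control and 50.7, 66.1 and 69.6 CPM with AP001189.3, a log2 fold change of 1.08 ± 0.11 (edgeR adjusted p 1.26e-05). In all 3 genes the AP001189.3 libraries were above those of control. PKMYT1, an inhibitory kinase of CDK1, changed by 0.41, while RBL2, or p130, of the RB family (-0.29), TFDP2, a partner of E2F factors (-0.33), and the DNA damage kinase ATM (-0.28) fell. CDKN1A, CCND1, PKMYT1 and ATM lost the call with the GC content offset, and CCND1 also without control replicate 2, AP001189.3 replicate 2 or AP001189.3 replicate 3 (adjusted p up to 0.127). Of the genes named from the 3 lists as changed with AP001189.3, PIMREG and GADD45A alone stayed called in 1 fit over all 9 libraries. Between the plasmids, 6 were higher with LINC00996, among them CDKN3 (0.72), TFDP2 (0.40) and CDKN2C (0.51), and 5 were lower, among them CDKN1A (-0.58), GADD45A (-0.98) and CCND1 (-0.49). These 11 are 27.5% of the list, against 21.4% of all genes. TFDP2 and CDKN2C lost the call without LINC00996 replicate 2 or any 1 AP001189.3 library (adjusted p up to 0.114).

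Several values need care because of shared sequence. Exons of 20 of the 54 members overlap another gene in the GENCODE 29 annotation, and 10 have at least 1 pseudogene named after them. BUB1B shares exons with the read-through gene BUB1B-PAK6, CENPA with SLC35F6, and PLK1, KIF20A and CCNA2 overlap genes on the opposite strand. ZWINT, BIRC5, AURKB, MCM5, MCM6 and GINS1 have neither.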

How the data were processed

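Poly(A) RNA of A549 was sequenced by the authors as 150 bp pairs, aligned (HISAT2 2.0.5) and counted per gene (featureCounts 1.5.0-p3, GRCh38, per the submitters' processing notes); strand use and the annotation release are not given in the sources used here. The deposited raw counts per gene and the deposited FPKM values (counts per gene length and library total) of all 9 libraries were used, and 0 columns of counts were left out. Groups followed the labels. Each pair of groups was tested on its 6 libraries with edgeR 4.0.16 in R 4.3.3 (filterByExpr, TMM, robust quasi-likelihood test), with Benjamini-Hochberg adjustment over all genes tested and a call at an adjusted p under 0.05. CPM used TMM factors, and log2 CPM a prior count of 2. Promoters came from RefSeq (GRCh38.p14), coordinates and GC content from GENCODE 29.

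The members and lists were chosen with earlier results of these data known. Values per library are given for ZWINT, for up to 3 called members per class and direction with the smallest adjusted p in each comparison, and for the member of each role with the smallest adjusted p with LINC00996. From each list, up to 3 called genes per direction are named, and CDKN1A, CDKN2A and CCND1; an item that this rule would name is not reported here. Alternatives were DESeq2 1.42.0, library size alone, other filters, all 9 libraries in 1 fit, a replicate block, offsets for gene length and GC content (loess, span 0.75), thinning, each library left out, and an added log2 fold change of 1. The procedure was tested on simulated data. Counts of 0 and their limits cover counting error only.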

Additional observations from a re-analysis of the deposited data

How the results depend on the processing

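No member changed direction among the calls under any alternative. The number of members called with LINC00996 against control (40) was 37 to 47 with DESeq2, library size alone, other filters, all 9 libraries in 1 fit, the replicate block, offsets for gene length or GC content and thinning, and 26 to 46 with 1 library left out. Against AP001189.3 (41) it was 40 to 46, and 27 to 46 with 1 library left out. With AP001189.3 against control (11) it was 7 with the GC content offset, 2 with all 9 libraries in 1 fit, 10 to 11 under the other settings and 6 to 13 with 1 library left out. With an added log2 fold change of at least 1, 2 members were called with LINC00996, 0 with AP001189.3 and 0 between the plasmids. S-phase minus mitotic ranged with 1 library left out from -0.2426 to -0.0909, from 0.0028 to 0.108 and from -0.314 to -0.1281 in that order, and with the GC content offset it was -0.042 for AP001189.3 against control. The cause of these moves was not tested.

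Over all genes, 3588, 3180 and 3452 were called in that order. These were 6135 and 5935 with the GC content offset for the first and the last, 437 with all 9 libraries in 1 fit for the second, and 1925 to 5481, 1914 to 3598 and 1840 to 6828 with 1 library left out. With library size alone, calls went from 1819 higher and 1361 lower to 1608 and 1719 for AP001189.3 against control, and from 1510 and 1942 to 2129 and 1667 for LINC00996 against AP001189.3. Whether libraries with the same replicate number share anything more was not tested. Deviations of libraries with the same number correlated at 0.021 to 0.149, -0.02 to 0.059 and 0.005 to 0.082 in that order. Those of libraries with different numbers correlated at -0.123 to 0.045, -0.057 to 0.026 and -0.075 to 0.025. With the replicate block, 45, 11 and 42 members and 4500, 3466 and 3772 genes were called.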
